A study of Mus musculus with 7 samples.

Results

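The genes described here are 10 genes of myoblast fusion and plasma membrane repair, taken by gene symbol from the RPKM table of the series, where they fill 10 of 11642 rows. They are the fusogens Tmem8c and Gm7325, the cadherins Cdh15 and Cdh2, the immunoglobulin proteins Ncam1 and Jam3, the tetraspanins Cd9 and Cd81, and the ferlins Myof and Dysf. All 10 passed the filter on low values. C2C12 cells, a line of mouse myoblasts that differentiate when serum is withdrawn, were transfected with a scramble siRNA (si-SCR) or with siRNA #1 against the long non-coding RNA lnc-SMaRT (si-SMaRT). Total RNA was sequenced on day 2 of differentiation in 2 samples of each kind, and both groups carried a transfected siRNA. The comparison asked how the transcriptome of differentiating myoblasts differs when lnc-SMaRT is depleted. The paper describes 2 independent cell populations. With 2 samples per group, the p-values rest on the spread between these samples, drawn for each gene towards that of all genes tested. They do not measure variation beyond these samples, and part of the spread may be technical.

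Skeletal muscle fibres form when mononucleated myoblasts leave the cell cycle, adhere to each other through cadherins and immunoglobulin proteins, and merge their membranes. Myomaker and myomixer, encoded by Tmem8c and Gm7325, are muscle-specific membrane proteins that drive the merger itself, with myomaker acting early and myomixer at pore formation. Tetraspanins organise membrane domains around adhesion proteins, and ferlins bind calcium and take part in vesicle fusion at the membrane, in myoblast fusion for myoferlin and in the resealing of torn fibres for dysferlin.

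The siRNA was checked first, because every difference between the groups rests on it. Its sense strand matches 21 bases in exon 4 of lnc-SMaRT, at nucleotides 878 to 898 of a transcript of 1409 nucleotides in 4 exons. In GRCm38 the match is at chrX:12340293-12340313 on the minus strand. The sequence is shown because it defines the treatment, in lower case throughout since no base of it is singled out.
si-SMaRT-1: gagaagcagaacaaacagaua
Lnc-SMaRT had 19.1 and 15.9 RPKM (reads scaled to gene length and library size) in si-SCR 1 and 2, and 2.88 and 3.65 RPKM in si-SMaRT 1 and 2. Both si-SMaRT samples were below both si-SCR samples. Lnc-SMaRT fell by 2.39 on the log2 scale (SE 0.28, adjusted p = 0.000882, limma with Benjamini-Hochberg adjustment).

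None of the 10 genes passed the adjusted threshold of 0.05 between si-SMaRT and si-SCR. In the same test 56 of 11086 genes did, which is 0.505%. Fold changes here are differences of log2(RPKM + 0.1), si-SMaRT minus si-SCR, and the test is limma with Benjamini-Hochberg adjustment over all 11086 genes. At an unadjusted p under 0.05, 1 of the 10 was found (Gm7325), against 9.09% of all genes. Of the 10, 6 had a lower mean in si-SMaRT and 4 a higher one, with a median of -0.13 against 0.02 over all genes tested. The groups did not overlap for 5 of the 10, which was the case for 40.7% of all genes. These were Gm7325 and Cd81, lower in si-SMaRT, and Cdh2, Jam3 and Myof, higher in si-SMaRT. The members' count of 5 of 10 was near that background, and nothing is read from it.

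**Figure D1:**
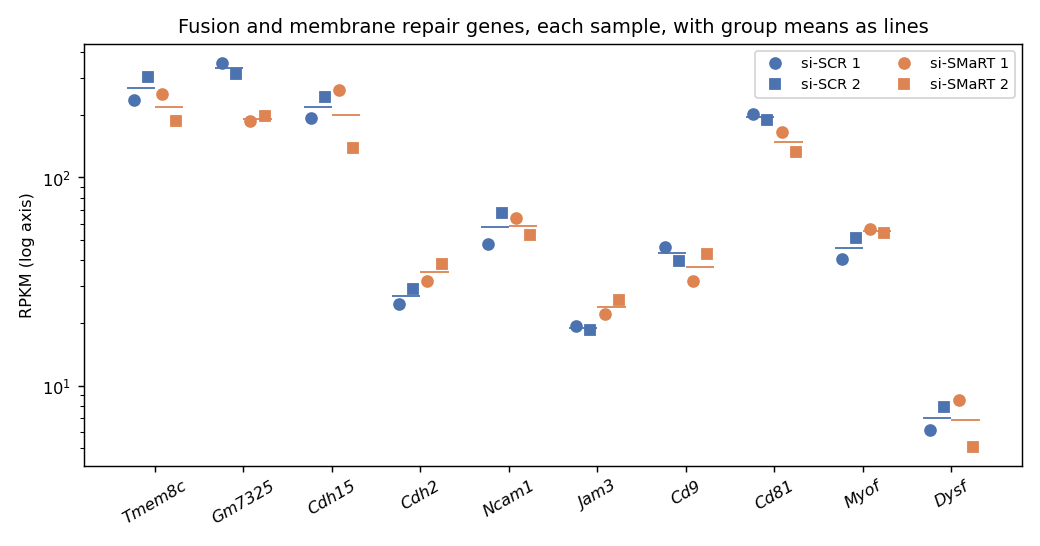
RPKM of the 10 genes on a log axis in the 2 si-SCR samples (blue) and the 2 si-SMaRT samples (orange), with group means as lines. The 2 si-SMaRT points of Gm7325, at 186 and 196 RPKM, lie below both si-SCR points, at 354 and 314 RPKM.

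Gm7325 (ENSMUSG00000079471, annotated as Mymx), a protein-coding gene at chr17:45600971-45602102 on the minus strand, had 354 and 314 RPKM in si-SCR 1 and 2. In si-SMaRT 1 and 2 it had 186 and 196 RPKM. Both si-SMaRT samples were below both si-SCR samples, and the gap between the groups was wider than the spread within either. The means were 334 ± 28.6 RPKM in si-SCR and 191 ± 7.30 RPKM in si-SMaRT (SD, n = 2), so si-SMaRT was at 57.3% of si-SCR. The log2 fold change was -0.80 (SE 0.27, 95% interval -1.37 to -0.23), the largest in size of the 10, with an adjusted p of 0.278 (limma, Benjamini-Hochberg). The myomixer mRNA was thus the member with the widest difference, but it did not pass the adjusted threshold.

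Tmem8c (ENSMUSG00000009214, annotated as Mymk), the myomaker gene at chr2:27061636-27072179 on the minus strand, had 236 and 305 RPKM in si-SCR 1 and 2. It had 250.3 and 187 RPKM in si-SMaRT 1 and 2. The groups overlapped, since si-SMaRT 1 was above si-SCR 1. The difference on the log2 scale was -0.31 (SE 0.28, 95% interval -0.91 to 0.29, adjusted p = 0.821 by limma with Benjamini-Hochberg adjustment). The interval spans a fold of 0.532 to 1.22, so both a difference as large as that of Gm7325 and no difference lay within it. Within a sample, Gm7325 over Tmem8c was 1.5 and 1.03 in si-SCR 1 and 2 and 0.743 and 1.05 in si-SMaRT 1 and 2. These ratios of RPKM overlapped between the groups, so a lower share of myomixer relative to myomaker was not shown.

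The genes whose 4 values followed each fusogen most closely were found by the root mean square distance of centred log2 values over the 4 samples, among 4670 genes with a mean of at least 10 RPKM. For Tmem8c these were Atp6v0c (distance 0.0176), Dusp27 (0.0390) and the joined row Pde4dip,Mir7225 (0.0410). For Gm7325 they included Tmem256 (0.0423) and Fig4 (0.050). With 4 samples such a likeness is a description.

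Cdh15 (ENSMUSG00000031962), which encodes M-cadherin, the cadherin of myoblasts and satellite cells, lies at chr8:122847966-122867397 on the plus strand. It had 193 and 242 RPKM in si-SCR 1 and 2, and 262 and 138 RPKM in si-SMaRT 1 and 2. The 2 si-SMaRT samples were the highest and the lowest of the 4 and differed 1.90-fold. On the log2 scale the fold change was -0.19 (SE 0.31, 95% interval -0.85 to 0.48, adjusted p = 0.912 by limma with Benjamini-Hochberg adjustment). It was 0.28 without si-SMaRT 2 and -0.65 without si-SMaRT 1, so the direction rested on which of the 2 was used.

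Promoters, taken from RefSeq (GRCm38.p6) as 250 bases before to 50 after the annotated start, were matched for Cdh15, Cd9, Cd81, Myof and Dysf, with 2 promoters for Dysf. No promoter was matched for Tmem8c, Gm7325, Cdh2, Ncam1 and Jam3. The E-box CANNTG, the letters bound by basic helix-loop-helix factors such as MyoD, reads the same on both strands. It was present in 72.3% of 32851 promoters, and its CAGCTG form, which overlaps it by definition, in 16.3%. Cdh15 held 4 E-boxes, none of them CAGCTG. Some of the windows are shown, because these letters are what the promoters of this group could share, with the E-box in capitals. The windows not shown hold CACGTG and CACTTG for Cdh15, CAGGTG and CACATG for Cd9, and CAACTG for Dysf.
Cdh15, chr8:122848126-122848155, plus strand: aggcactgatcaCATATGctgtcactcaga
Cdh15, chr8:122848227-122848256, plus strand: caggcccacctaCATGTGctgtcactcatc
Cd81, chr7:143052593-143052622, plus strand: gtccccaagaacCAGCTGcaccaagttcca
Cd9, chr6:125494768-125494797, minus strand: acatgcgcatagCAGCTGgccgagcgccgt
Cd9 held 3 E-boxes and Cd81 1, each with 1 of the CAGCTG form, while Myof held 0 and 1 of the 2 Dysf promoters held 1. A match is a description of letters, and no binding was measured here.

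Cdh2, which encodes N-cadherin, a cadherin that myoblasts share with neurons, had 24.8 and 29.2 RPKM in si-SCR 1 and 2. It had 31.8 and 38.3 RPKM in si-SMaRT 1 and 2, both above both si-SCR samples. Its log2 fold change was 0.37 (SE 0.26, 95% interval -0.19 to 0.93), with an adjusted p of 0.741 (limma, Benjamini-Hochberg). Cdh15 over Cdh2 was 7.79 and 8.31 in si-SCR 1 and 2, and 8.23 and 3.60 in si-SMaRT 1 and 2. In the deposited values this ratio was lower in si-SMaRT 2 than in the other 3 samples.

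Ncam1 (ENSMUSG00000039542, chr9:49502136-49798925, minus strand) encodes a homophilic adhesion protein of muscle and nerve, and had 47.9 and 67.2 RPKM in si-SCR 1 and 2. In si-SMaRT 1 and 2 it had 63.9 and 53.0 RPKM, both within the si-SCR range. Its log2 fold change was 0.04 (SE 0.28, 95% interval -0.54 to 0.62, adjusted p = 0.982 by limma with Benjamini-Hochberg adjustment). Jam3 (ENSMUSG00000031990, chr9:27097384-27155421, minus strand), a junctional adhesion protein, had 19.3 and 18.6 RPKM in si-SCR 1 and 2 and 22.0 and 25.9 RPKM in si-SMaRT 1 and 2. Here both si-SMaRT samples were above both si-SCR samples. The log2 fold change of Jam3 was 0.33 (SE 0.26, 95% interval -0.22 to 0.89), with an adjusted p of 0.784 (limma, Benjamini-Hochberg). Ncam1 over Jam3 was 2.48 and 3.61 in si-SCR 1 and 2 and 2.90 and 2.04 in si-SMaRT 1 and 2, and the groups overlapped.

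Cd81 (ENSMUSG00000037706, chr7:143052739-143067934, plus strand) had 201 and 189 RPKM in si-SCR 1 and 2 and 165 and 133 RPKM in si-SMaRT 1 and 2. Both si-SMaRT samples of this tetraspanin were below both si-SCR samples. For Cd81 the log2 fold change was -0.40 (SE 0.27, 95% interval -0.97 to 0.17, adjusted p = 0.721 by limma with Benjamini-Hochberg adjustment). Cd9 (ENSMUSG00000030342, chr6:125460266-125494791, minus strand), its close relative, had 46.6 and 39.9 RPKM in si-SCR 1 and 2 and 31.8 and 42.8 RPKM in si-SMaRT 1 and 2. The groups overlapped, with si-SMaRT 2 between the si-SCR samples. Its log2 fold change was -0.22 (SE 0.27, 95% interval -0.80 to 0.35), with an adjusted p of 0.870 (limma, Benjamini-Hochberg). Cd9 over Cd81 was 0.232 and 0.211 in si-SCR 1 and 2 and 0.193 and 0.323 in si-SMaRT 1 and 2.

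Myof (ENSMUSG00000048612, chr19:37899036-38043577, minus strand), the myoferlin gene, had 40.7 and 51.4 RPKM in si-SCR 1 and 2 and 56.6 and 53.9 RPKM in si-SMaRT 1 and 2. Both si-SMaRT samples were above both si-SCR samples. For Myof the log2 fold change was 0.27 (SE 0.26, 95% interval -0.29 to 0.83, adjusted p = 0.837 by limma with Benjamini-Hochberg adjustment). Dysf (ENSMUSG00000033788, chr6:84008590-84211060, plus strand), the dysferlin gene, had the lowest level of the 10, with 6.11 and 7.90 RPKM in si-SCR 1 and 2. It had 8.57 and 5.10 RPKM in si-SMaRT 1 and 2, the highest and the lowest of the 4 samples. The log2 fold change of Dysf was -0.07 (SE 0.31, 95% interval -0.71 to 0.57), with an adjusted p of 0.970 (limma, Benjamini-Hochberg). Dysf over Myof was 0.150 and 0.154 in si-SCR 1 and 2 and 0.151 and 0.0946 in si-SMaRT 1 and 2, so that in the deposited values si-SMaRT 2 stood below the other 3 samples.

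**Figure D2:**
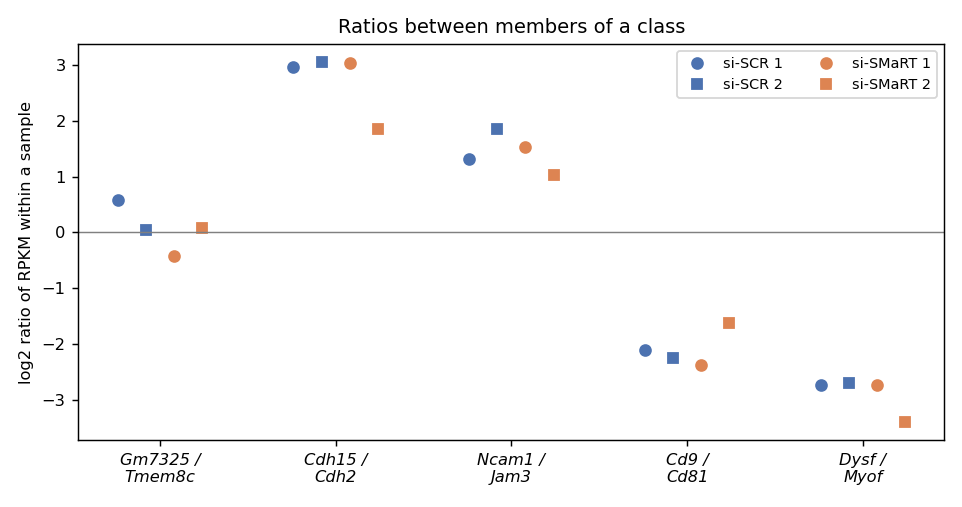
Log2 ratio of the RPKM of 2 genes of a class within each sample, for si-SCR (blue) and si-SMaRT (orange). For Cdh15 over Cdh2 and Dysf over Myof, si-SMaRT 2 lies below the other 3 samples.

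On the RPKM scale, which is per length, the 10 genes in si-SCR were ordered Gm7325 (mean 334), Tmem8c (270.4), Cdh15 (218), Cd81 (195), Ncam1 (57.5), Myof (46.0), Cd9 (43.3), Cdh2 (27.0), Jam3 (19.0) and Dysf (7.0). The si-SCR samples of neighbours overlapped for Tmem8c and Cdh15, for Cdh15 and Cd81, for Ncam1 and Myof, and for Myof and Cd9. Gm7325 ranked above 98.6% of the rows of the table in si-SCR and Dysf above 50.3%, and no member other than Dysf ranked below 75.8%. In si-SMaRT the mean of Gm7325 was 191 RPKM, below Tmem8c (219) and Cdh15 (199.8). That order was not resolved, because the si-SMaRT samples of Cdh15 spanned those of Gm7325, and those of Tmem8c overlapped them.

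**Figure D3:**
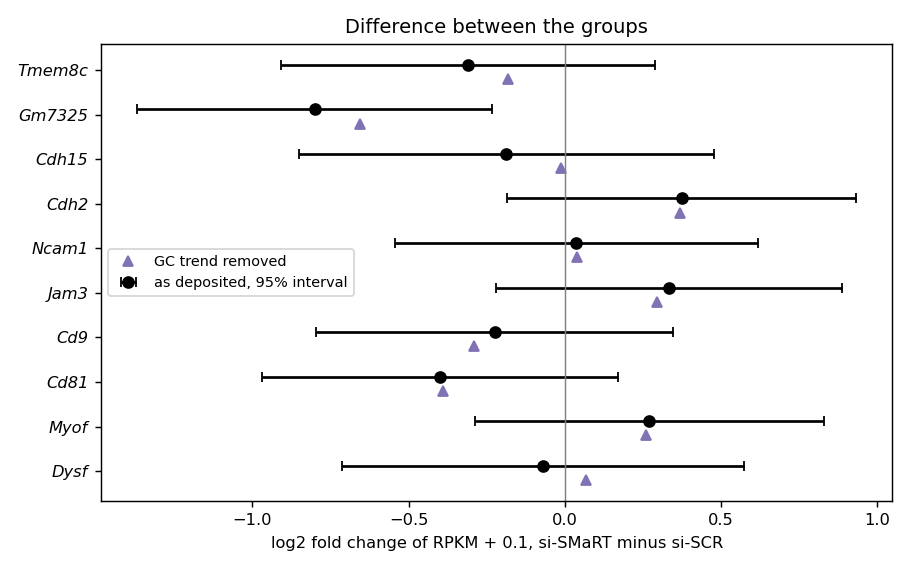
Log2 fold change of RPKM + 0.1, si-SMaRT minus si-SCR, for each gene, as deposited with 95% intervals from limma (circles), and after the GC trend was removed, drawn without intervals (triangles). Among the intervals drawn, that of Gm7325, from -1.37 to -0.23, is the only one that does not cross 0.

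The 2 si-SMaRT samples differed from each other along GC content, the share of G and C bases in a transcript. By the paper's read counts, si-SMaRT 1 also lost a far larger share of its read pairs to rRNA and tRNA filtering than the other samples. Its part in the differences was not tested. Over 10024 genes with a GC value, the difference si-SMaRT 2 minus si-SMaRT 1 had a Spearman correlation of -0.847 with GC content, against 0.380 for si-SCR 2 minus si-SCR 1. Over the 10 genes, which share the libraries, Spearman's rho for the si-SMaRT pair was -0.770 and Pearson's r -0.792. The genes with the highest GC content, Cdh15 (59.9%), Gm7325 (56.0%), Dysf (55.5%) and Tmem8c (54.9%), had differences of -0.92, 0.08, -0.74 and -0.42 on the log2 scale. Gm7325 stood apart from the other 3 in this.

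**Figure D4:**
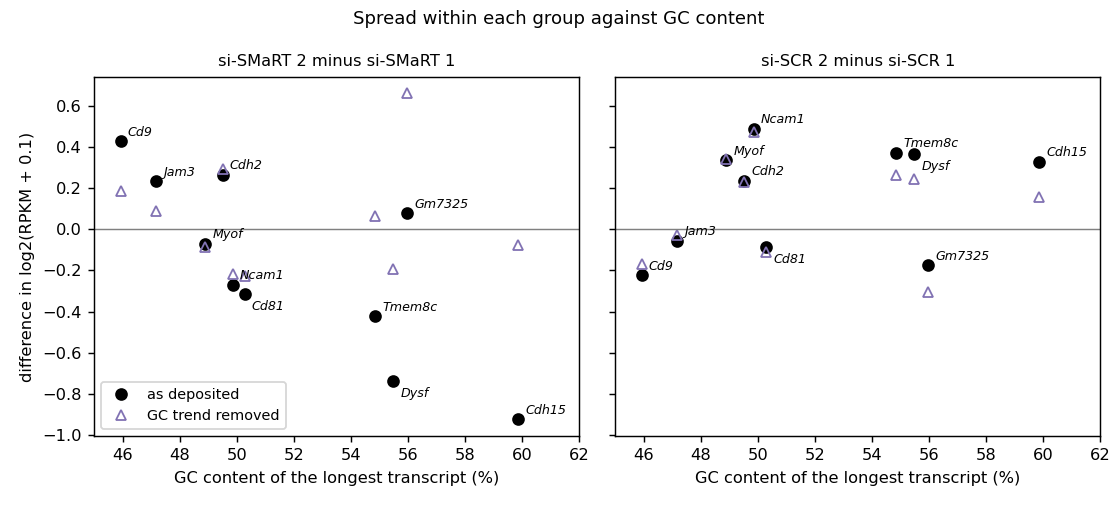
Difference in log2(RPKM + 0.1) between the 2 samples of a group against the GC content of the longest transcript, as deposited (circles) and after the GC trend was removed (triangles). In the si-SMaRT pair Cdh15, Dysf and Tmem8c lie lowest as deposited, at -0.92, -0.74 and -0.42.

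After the GC trend of each sample was removed, Cdh15 had 193, 215, 207 and 196 RPKM in si-SCR 1, si-SCR 2, si-SMaRT 1 and si-SMaRT 2. Its si-SMaRT samples then lay between its si-SCR samples. Gm7325 had 352, 285, 160.0 and 253 RPKM in the same order, with its si-SMaRT samples farther apart than before and still below both si-SCR samples. The log2 fold change of Gm7325 was then -0.65 (adjusted p = 0.129, limma with Benjamini-Hochberg adjustment), and that of Tmem8c -0.18 (adjusted p = 0.521, limma). Dysf changed sign, to 0.07. The groups did not overlap for 7 of the 10 in this setting, against 59.0% of 10024 genes, and nothing is read from that count. Cdh15 over Cdh2 was then 7.75, 7.37, 6.59 and 5.09 in the same order of samples, and Dysf over Myof 0.149, 0.140, 0.131 and 0.121. For both ratios the si-SMaRT samples were then below both si-SCR samples, and si-SMaRT 2 stood less far from si-SMaRT 1 than in the deposited values. Gm7325 over Tmem8c, Ncam1 over Jam3 and Cd9 over Cd81 still overlapped between the groups, and no ratio was tested. None of the 10 passed the threshold in this setting, in which 5.48% of 10024 genes did.

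Without si-SCR 1 or without si-SCR 2, Gm7325 did not pass, at log2 fold changes of -0.71 and -0.89. Leaving out 1 si-SMaRT sample changed which members passed, and the lone sample was then taken to vary as the si-SCR samples do. Without si-SMaRT 1, Gm7325 (-0.76), Cdh15 (-0.65) and Cdh2 (0.51) passed, with 26.2% of all genes. Without si-SMaRT 2, Gm7325 (-0.84) passed, with 8.49% of all genes. With the GC trend removed as well, Cdh2 (0.52) passed without si-SMaRT 1 and Gm7325 (-0.98) without si-SMaRT 2, with 13.3% and 11.1% of all genes. In the crossed pairing, a block that joins si-SCR 1 with si-SMaRT 2 and si-SCR 2 with si-SMaRT 1, Gm7325 passed, with 4.39% of all genes. The labels do not give this pairing. With the replicate number as the block, Gm7325 did not pass (-0.80, adjusted p = 0.770, limma with Benjamini-Hochberg adjustment). Gm7325 was lower in si-SMaRT in each of these settings, and nothing is read from that. The direction had to follow, because its groups did not overlap before or after the GC trend was removed. A block leaves the fold change as it was. With the GC trend removed and without si-SMaRT 1, the log2 fold change of Gm7325 was only -0.32. The crossed pairing, and the GC trend removed with 1 si-SMaRT sample left out, were chosen after the values were seen.

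Other genes of adhesion and fusion, actin remodelling and membrane repair were read in the same limma fit. Of 27 tested adhesion and fusion receptors, none passed in either direction, 14 were higher and 13 lower in si-SMaRT, with a median of 0.03. Adam12, a metalloprotease of fusing myoblasts, had 5.47 and 8.08 RPKM in si-SCR 1 and 2 and 12.9 and 13.0 RPKM in si-SMaRT 1 and 2. Its log2 fold change was 0.95 (adjusted p = 0.202, limma with Benjamini-Hochberg adjustment). Vcam1 (0.88) and Kirrel (0.78) were the next in size. Of 25 actin remodelling genes none passed, 20 were higher and 5 lower, led by Dock1 (0.74), Wasl (0.58) and Wasf2 (0.52). Their median was 0.23, against 0.02 over all genes tested. The summed level of these genes was 771.0 and 770.8 RPKM in si-SCR 1 and 2 and 779.6 and 947.0 RPKM in si-SMaRT 1 and 2. Most of the rise of this sum was thus in si-SMaRT 2. After the GC trend was removed, when 5.48% of all genes were called, 3 of the receptors and 2 of the actin genes were called higher and none lower. With the replicate block as well, when 153 of 10024 genes were called higher and 218 lower, 3 receptors and 0 actin genes were called.

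Of 29 tested membrane repair genes, 1 was called lower and none higher, 17 had negative and 12 positive fold changes, and the median was -0.13. Ano5, a membrane protein mutated in a dystrophy with defective repair, had 11.9 and 9.88 RPKM in si-SCR 1 and 2 and 3.81 and 3.94 RPKM in si-SMaRT 1 and 2. Ano5 fell by 1.46 on the log2 scale (SE 0.27, adjusted p = 0.0232, limma with Benjamini-Hochberg adjustment). The call for Ano5 was lost without either si-SCR sample, at adjusted p of 1 and 0.482 (limma). Cav3, the muscle caveolin, was lower by a log2 fold change of -1.01 and Trim72, a repair protein of muscle, of -0.95, with adjusted p of 0.122 and 0.235 (limma). After the GC trend was removed, 4 genes of this list were called lower and 1 higher, against 5.48% of all genes called. With the replicate block as well 2 were called in all, when 153 of 10024 genes were called higher and 218 lower.

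**Figure D5:**
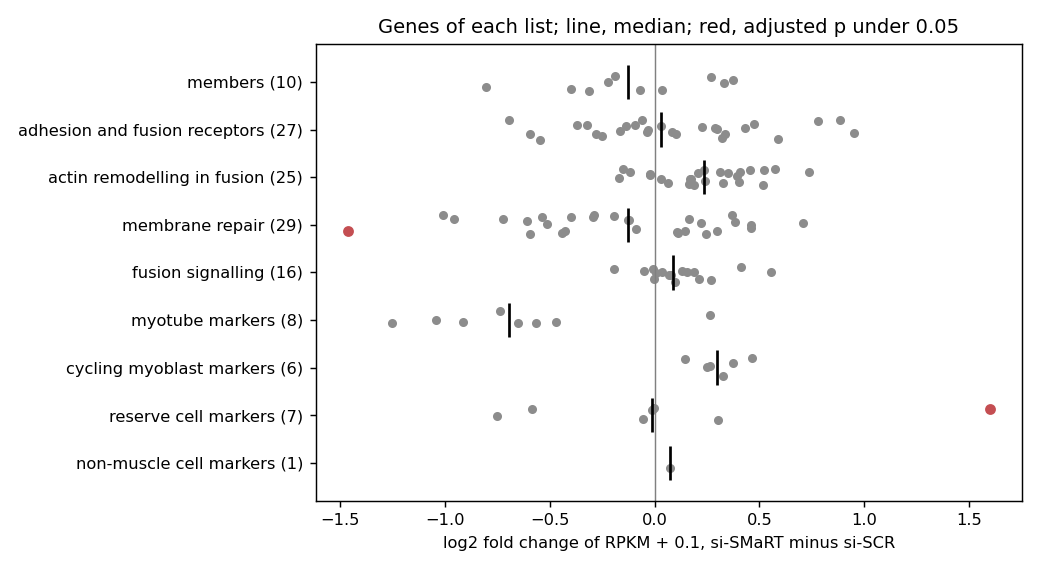
Log2 fold change of RPKM + 0.1, si-SMaRT minus si-SCR, for each tested gene of each list (points; red where the adjusted p was under 0.05), with the list's median as a line. The myotube markers have the lowest median, -0.69, and the actin and cycling lists have medians of 0.23 and 0.30.

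Marker lists for the state of the cells were read in the same fit, and their part in the results was not tested. In bulk RNA, fewer cells of a type and less RNA per cell cannot be told apart. Of 8 myotube markers 7 were lower in si-SMaRT and 1 higher, with a median of -0.69 and none past the threshold. Their summed level was 10361 and 10792 RPKM in si-SCR 1 and 2 and 7440.1 and 5184 RPKM in si-SMaRT 1 and 2. Ckm, muscle creatine kinase, had a log2 fold change of -1.25 (adjusted p = 0.106, limma), Tnnt3, a troponin, of -1.04 and Actc1, cardiac actin, of -0.91. All 6 cycling myoblast markers were higher in si-SMaRT, with a median of 0.30 and none past the threshold, led by Aurkb (0.46), Ccna2 (0.38) and Mki67 (0.33). Their summed level was 143.7 and 123.0 RPKM in si-SCR 1 and 2 and 138.6 and 191.1 RPKM in si-SMaRT 1 and 2. By this sum si-SMaRT 1 lay between the si-SCR samples. Without si-SMaRT 2 the log2 fold changes were 0.55 for Aurkb, 0.10 for Ccna2 and 0.14 for Mki67. Of 7 reserve cell markers tested, 2 were higher in si-SMaRT and 5 lower, with a median of -0.01, and 1 passed the threshold. That marker, Id3, an inhibitor of myogenic factors, rose by a log2 fold change of 1.60 (SE 0.30, adjusted p = 0.0232, limma with Benjamini-Hochberg adjustment). It had 2.91 and 3.20 RPKM in si-SCR and 12.3 and 7.26 RPKM in si-SMaRT. Of the other reserve cell markers, Heyl (-0.75) and Id2 (-0.58) had the largest differences. The call for Id3 was lost without either si-SCR sample (adjusted p = 0.716 and 0.345, limma). Of 8 markers of other tissues, only Cd68 was tested, at 1.13 and 0.788 RPKM in si-SCR and 1.13 and 0.889 RPKM in si-SMaRT.

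In the RNA recovered by pull-down of lnc-SMaRT, 1 library, the deposited list held 345 peaks, and that of the LacZ control pull-down 336. For LacZ the paper names a call against the input only, and for lnc-SMaRT calls against the input and against LacZ. The sources used here do not say which of these calls the lnc-SMaRT list holds. None of the 10 genes had a peak in an exon on the same strand in either list. Of 10479 genes with a gene model, 0.525% had one in the lnc-SMaRT list and 0.324% in the LacZ list, so nothing is read from the members' count.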

How the data were processed

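Total RNA of C2C12 cells was sequenced in 2 si-SCR and 2 si-SMaRT samples, grouped by their labels. The authors used Trimmomatic for trimming and Bowtie 2 against rRNA and tRNA, aligned to GRCm38 with TopHat2, counted on Ensembl 77 genes with htseq-count, removed genes of low CPM, and calculated the deposited RPKM values with edgeR after TMM normalization. The peak lists hold p-values that the authors obtained with Piranha.

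Reads behind the RPKM values were recovered from their steps for 11641 of 11642 rows. The library sizes found this way ran from 11291255 (si-SMaRT 1) to 14312935 (si-SMaRT 2). Gene lengths fixed the factor for 5908 rows, so reads of the others are lower limits. The members had from 608 to 9739 reads per sample, some of them lower limits.

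Values were tested with limma 3.58.1 in R 4.3.3 (eBayes with trend) on log2(RPKM + 0.1), where the mean reached 0.5 RPKM. P-values were adjusted after Benjamini-Hochberg, at a threshold of 0.05. This scale understates changes of low genes. The study itself used a count test, which these RPKM values do not allow as the main test. GC content came from GENCODE M21 on GRCm38 for 90.1% of rows, and its trend was removed with loess of span 0.3. The fit was checked on simulated data, in which any GC trend was removed before the fit. The main fit was therefore not checked in the presence of such a trend. Python 3.11.15 and pandas 2.3.3 were used for the rest.

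The members and lists were chosen with earlier results of these data known. The genes named are the 10 members, lnc-SMaRT, in each list the genes past the threshold and up to 3 with the largest fold change, and the 3 genes most like each fusogen, of which 1 is not reported here. Alternatives were other pseudocounts, filters and scalings, no trend, the replicate number as a block, voom on the recovered reads, and each sample left out. The crossed block, and the GC trend removed with 1 si-SMaRT sample left out, were added after the values were seen. The columns of the peak lists were used for counts only.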

Additional observations from a re-analysis of the deposited data

How the results depend on the processing

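Beyond the number, nothing in the labels ties the 2 same-numbered pairs. Their deviations had a correlation of -0.362 in values that still held the GC trend. The difference of sample 2 minus sample 1 followed GC content with opposite signs in the groups (Spearman 0.38 in si-SCR, -0.847 in si-SMaRT). Whether the samples were paired therefore cannot be told from this correlation. With the replicate block, 19 genes were called higher and 77 lower, against 20 and 36 without it, and 0 members were called in either. The paired fit changed no call of a member. The crossed pairing called 146 genes higher and 341 lower and 1 member.

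Quantile normalization called 13 genes higher. Removal of the GC trend gave 251 higher and 298 lower, and 153 and 218 with the replicate block as well. Voom gave 32 and 75. Leaving out 1 sample gave 3 to 1253 genes higher, 20 to 1655 lower, 0 to 3 members called and a median of the members from -0.27 to 0.19. With the GC trend removed, 598 genes were higher and 737 lower without si-SMaRT 1, with 1 member called, and 515 and 602 without si-SMaRT 2, with 1 member called and a median of 0.086. The cause was not tested. Of the members' fold changes over all settings, 153 kept direction and side of the threshold, 7 passed it and 10 changed sign.

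With each sample left out in turn, log2 fold changes ran from -0.65 to 0.28 for Cdh15, from -0.21 to 0.28 for Ncam1, from -0.44 to 0.30 for Dysf and from -0.16 to 0.31 for Cd68, so each changed sign. The sign of Ncam1 also changed without si-SMaRT 1 (-0.098), and that of Dysf without si-SCR 2 (0.11). Removal of the GC trend turned Dysf to 0.070, and to 0.070 with the block as well. With the GC trend removed, Cdh15 (0.026) and Dysf (0.17) changed sign without si-SMaRT 2, and Ncam1 (-0.069) without si-SMaRT 1. Cd68 was at -0.080 without si-SMaRT 1. With 2 samples per group the median standard error of a member was 0.27 on the log2 scale, and the 95% intervals of all members but Gm7325 included 0.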

Other observations

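Of 16 tested genes of fusion signalling, none passed the threshold in either direction (limma with Benjamini-Hochberg adjustment), 0 had an unadjusted p under 0.05, 12 were higher in si-SMaRT and 4 lower, and the median log2 fold change was 0.09. Cxcl12, a chemokine, had 2.27 and 2.86 RPKM in si-SCR 1 and 2 and 3.87 and 3.73 RPKM in si-SMaRT 1 and 2. Its receptor Cxcr4 had 12.9 and 13.1 RPKM in si-SCR 1 and 2 and 18.6 and 16.2 RPKM in si-SMaRT 1 and 2. For both genes each si-SMaRT sample was above each si-SCR sample, with log2 fold changes of 0.56 and 0.41. The groups did not overlap for 3 of the 16 genes, against 40.7% of all genes, and nothing is read from this. Sp1, a transcription factor, had the next largest difference, 0.27.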
